A study of Mus musculus with 24 samples.

Results

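The genes described here are the 9 transcription factors that hold the β-cell identity programme together in the adult islet, namely Pdx1, Mafa, Nkx6-1, Nkx2-2, Neurod1, Pax6, Isl1, Foxa2 and Rfx6. They were chosen by symbol from a table of mouse islet RNA sequencing, and all 9 were found, each once, among its 41549 genes. The table held 24 libraries from dispersed pancreatic islet cells of wild type mice, in 4 groups of 6. The cells had been transfected with a control antisense oligonucleotide (Ctr) or with an inhibitor of the 5'tRNA-Glu fragment (αGlu), and then kept with the fatty acid palmitate (PA) or with its carrier albumin alone (BSA). Each group held 3 libraries of batch 1 and 3 of batch 2, and the labels do not say what a batch is.

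All groups therefore shared the wild type genotype, the dispersal and a transfection, and no untransfected cells were analysed here. According to the study's methods, islets came from adult male and female mice in equal parts, and for each replicate the cells of all groups came from the same animal. The labels give neither the animal nor its sex for a library, so the libraries were fitted as independent within a batch, and a fit by animal, not run here, could call other members. The p-values measure the spread between these libraries, and the labels alone do not say whether it is technical. The study describes independent experiments, with each replicate of primary cells prepared from a different organism. The islet preparation is a mixture of endocrine and other cells, and several of the 9 factors are made outside β-cells too. Pax6, Isl1, Neurod1, Nkx2-2, Foxa2 and Rfx6 are found in most endocrine cell types of the islet, whereas Pdx1, Nkx6-1 and Mafa are largely features of the β-cell in the adult mouse, with Pdx1 also in δ-cells.

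As background, Pdx1, Neurod1 and Mafa bind the insulin gene promoter directly, as a homeodomain, a basic helix-loop-helix and a leucine zipper protein. Nkx6-1 and Nkx2-2 are homeodomain proteins that, besides activating β-cell genes, keep genes of the other endocrine types silent. Pax6, Isl1 and Rfx6 are needed for the formation of endocrine cells and for hormone production, and Foxa2 is a forkhead protein that opens chromatin ahead of other factors. Loss of such factors under metabolic stress, with Mafa usually among the first to fall, is a known feature of failing β-cells in rodents.

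The inhibitor used in the αGlu groups is shown because every comparison between oligonucleotides rests on it. The fragment is the 5' part of a tRNA for glutamate. The target stretch within it, which is shorter than the whole fragment, is written 5' to 3' with capitals for its bases 2 to 21, which can pair with the inhibitor.
inhibitor: TAACCACTAGACCACCAGGG
target stretch: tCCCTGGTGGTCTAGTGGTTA
The longest run of these 21 bases that occurs in the annotated transcripts of a member was 7 bases in 8 members and 6 in Foxa2, and a run of 7 or more was present in 84.5% of 21877 protein-coding genes. Of the complement, which could pair with the fragment, Pax6 held a run of 9 bases, a length reached by 13.4% of genes, and Isl1 one of 8, reached by 41.2%. The other 7 members held 6 or 7 bases of it.

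The 9 genes lie on 5 chromosomes of the GRCm38 build, as GENCODE vM21 places them. Mafa lies at chr15:75745490-75748228 on the minus strand, Pdx1 at chr5:147269959-147275848 on the plus strand and Nkx6-1 at chr5:101658139-101664996 on the minus strand. Nkx2-2 (chr2:147177546-147194243), Neurod1 (chr2:79452521-79456751) and Foxa2 (chr2:148042877-148046969) lie on the minus strand of chromosome 2, and Pax6 (chr2:105668900-105697364) on its plus strand. Isl1 was placed at chr13:116298281-116309689 on the minus strand and Rfx6 at chr10:51677756-51730432 on the plus strand.

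RefSeq promoters of GRCm38.p6, taken as the 250 bases before a start site, were matched for 8 of the 9 members, Mafa having no entry. The E-box CANNTG, the motif of Neurod1 and its relatives, was found on either strand in 6 of their 11 listed promoters, and in 66.2% of all promoters in the table. TAAT, the core that homeodomain proteins such as Pdx1 and Nkx6-1 recognise, was found on either strand in 7 of 11, against 54.9% of all promoters. TGTTTA, a forkhead motif, was in 0 of 11 against 12%, and TGCTGA, part of the Maf motif, in 3 of 11 against 16.1%. The stretch before one start of Nkx2-2 is printed because Nkx2-2 is the member that was higher with PA. It is chr2:147186456-147186652 on the minus strand, inside the gene's annotated span and outside its exons, 197 bases long, with capitals for 3 CANNTG motifs and 1 TAAT.
Nkx2-2: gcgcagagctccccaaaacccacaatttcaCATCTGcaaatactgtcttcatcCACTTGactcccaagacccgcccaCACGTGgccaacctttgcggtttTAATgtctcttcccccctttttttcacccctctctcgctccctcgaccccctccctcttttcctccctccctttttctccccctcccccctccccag
A match of letters is only that, and the libraries hold no measurement of what binds there.

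The libraries held 18214719 to 35001979 counts, with a median of 26701201.5, and the members had between 1351 and 17113 counts in a library. Library S23 of the Ctr PA group in batch 2 stood apart: it was past Dixon's critical value for its group at 8.35% of genes, against at most 3.30% in any other library, and 8.83% of its counts were mitochondrial, against 3.52% to 6.03%. Marker genes of other pancreatic cells were counted in all groups, and no listed marker was at 0 in all libraries of a group. The 7 β-cell markers, such as Ins1, Iapp and Slc2a2, summed to 83314 to 150908 CPM (counts scaled to a common library size by TMM), against 10127 to 25882 CPM for the 9 α-cell markers. The labels name the libraries as mouse islets, and RNA of both endocrine cell types was present in them. These sums do not give shares of cells.

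The members were among the more abundant transcripts of the islet. On the deposited TPM scale, which allows for transcript length, Mafa had the highest level with a median over the 24 libraries of 459.8 TPM (range 315 to 655). Nkx6-1 followed at 285 TPM (219 to 334) and Pdx1 at 254 (167 to 304). Neurod1 had a median of 205 TPM (137 to 261) and Nkx2-2 of 165 (120.5 to 189). Isl1 at 106, Pax6 at 104, Rfx6 at 102 and Foxa2 at 92.1 TPM formed the lower end. Even Foxa2 stood at the 93.6th percentile of the 15916 genes with enough counts to be tested.

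The places of the upper 5 genes were steadier than those of the lower 4. Mafa was above Nkx6-1 in 24 of 24 libraries, Nkx6-1 above Pdx1 in 22 and Pdx1 above Neurod1 in 22. Neurod1 was above Nkx2-2, and Nkx2-2 above Isl1, in all 24. Isl1 was above Pax6 in only 9 libraries and Pax6 above Rfx6 in 14, so these neighbours could not be ordered, while Rfx6 was above Foxa2 in 20.

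**Figure D1:**
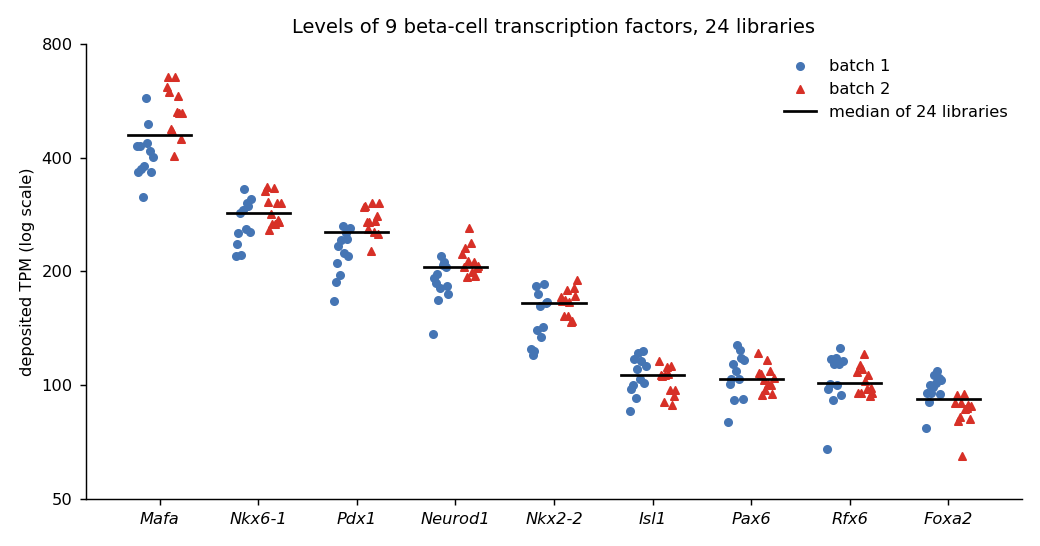
Level of each of the 9 factors in every library (TPM, log axis), with points split by batch and a line at the median of the 24 libraries. Mafa sits at the top with a median of 459.8 TPM and Foxa2 at the bottom with 92.1 TPM, and Isl1, Pax6 and Rfx6 overlap.

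Palmitate lowered Mafa, the factor of β-cell maturity, and among the 9 members no other gene was lower by the test. In Ctr cells Mafa ranged from 342 to 636 CPM in BSA (median 583, mean 527 ± 120.5, SD, n = 6) and from 305 to 489 CPM in PA (median 396, mean 396 ± 70.9, SD, n = 6). In αGlu cells it ranged from 404 to 645 CPM in BSA (median 524, mean 530.0 ± 94.3) and from 339.8 to 551 CPM in PA (median 418, mean 438 ± 87.5, SD, n = 6 each). Over both batches the ranges of the PA and BSA groups overlapped.

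Within the batches the groups stood further apart. Among the batch 1 libraries with Ctr, Mafa was at 562, 342 and 413 CPM in BSA and at 346, 305 and 353 CPM in PA. The batch 2 libraries with Ctr gave 605, 636 and 605 CPM in BSA and 489, 443 and 438 CPM in PA. All 3 PA libraries of batch 2 were thus below all 3 BSA libraries, whereas in batch 1 the lowest BSA library lay among the PA values. With αGlu, the batch 1 libraries stood at 510.2, 404 and 457 CPM in BSA and 375, 339.8 and 376 in PA, without overlap. In batch 2 the αGlu values were 645, 537 and 627 CPM in BSA and 551, 459.7 and 525 in PA, where 1 PA library was above 1 BSA library.

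In a fit of all 24 libraries with batch as a term (edgeR quasi-likelihood test, Benjamini-Hochberg adjustment over the 15916 genes tested), Mafa was lower with PA in Ctr cells by a log2 fold change of -0.41 (SE 0.0854, 95% interval -0.59 to -0.23, adjusted p = 7.84e-04), that is, it decreased by 24.7%. In αGlu cells the log2 fold change was -0.28 (SE 0.0853, -0.46 to -0.11, adjusted p = 0.0148), a level that decreased by 17.8%. Mafa stayed called in both, whichever single library was left out, S23 included. The calls depended on the batch term and, except for Ctr cells in batch 2, on fitting both batches together. Without the batch term the adjusted p was 0.0869 in Ctr and 0.275 in αGlu cells, and within single batches the log2 fold change was -0.40 (adjusted p = 0.107) and -0.43 (adjusted p = 0.00773) for Mafa in Ctr cells and -0.34 (adjusted p = 0.183) and -0.23 (adjusted p = 0.105) in αGlu cells, for batches 1 and 2. In a bulk preparation, fewer β-cells or less Mafa RNA per β-cell can each lower the CPM of Mafa, and their parts were not tested.

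Nkx2-2 went the other way. In Ctr cells it ranged from 118 to 177 CPM in BSA (median 166, mean 154 ± 25.9, SD, n = 6) and from 143 to 181 CPM in PA (median 175, mean 170.1 ± 14.1, SD, n = 6). In αGlu cells it ranged from 129.9 to 173 CPM in BSA (median 154, mean 153 ± 16.3) and from 161 to 199 CPM in PA (median 179.9, mean 180.3 ± 16.9, SD, n = 6 each). With αGlu the PA libraries lay above all BSA libraries of their own batch, at 175, 161 and 163 against 150.4, 129.9 and 139 CPM in batch 1 and at 199, 185 and 199 against 173, 157 and 167 CPM in batch 2.

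The log2 fold change of Nkx2-2 with PA was 0.24 in αGlu cells (SE 0.0716, 95% interval 0.09 to 0.39, adjusted p = 0.0140), a level 18% higher. In Ctr cells it was 0.15 (SE 0.0717, 0.01 to 0.30, unadjusted p = 0.0415, adjusted p = 0.108), so Nkx2-2 was not called there. The Ctr value of Nkx2-2 passed the threshold without library S1, the highest Ctr BSA value of batch 1 (log2 fold change 0.22, adjusted p = 0.0120), and with scaling to total counts (0.20, adjusted p = 0.0399). S1 was the library with the fewest counts, 18214719. Its Nkx2-2 stood at 171 CPM, against 118 and 124 CPM in S5 and S9 of the same group and batch. On the deposited TPM scale these libraries were closer, at 124.6 against 120.5 and 123.1 TPM. In αGlu cells Nkx2-2 gave 0.24 in batch 1 alone (adjusted p = 0.276) and 0.23 in batch 2 alone (adjusted p = 0.0284), and without the batch term its adjusted p was 0.109.

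**Figure D2:**
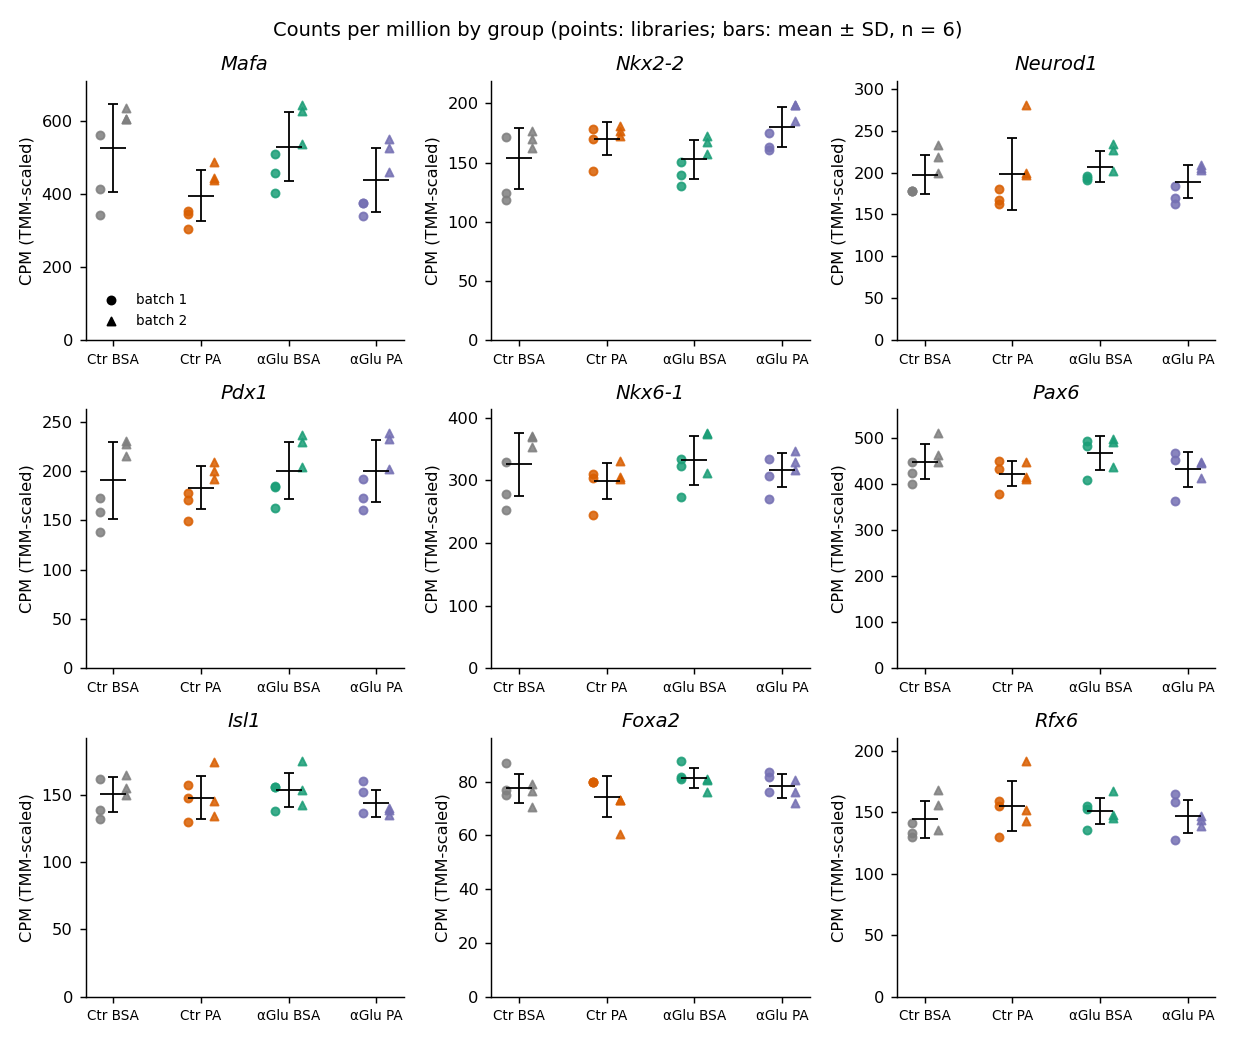
CPM of each of the 9 factors by group, with 1 point per library marked by batch and bars for the mean ± SD of 6 libraries. Mafa falls from a mean of 527 to 396 CPM with PA in Ctr cells and from 530.0 to 438 CPM in αGlu cells, and the batch 2 points of Pdx1, Mafa and Neurod1 lie mostly above those of batch 1.

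The other 7 members did not pass the test with PA in either oligonucleotide. Pdx1 had a log2 fold change of -0.04 in Ctr cells (95% interval -0.18 to 0.10) and of -0.00 in αGlu cells (-0.14 to 0.13). Nkx6-1 was at -0.11 in Ctr cells (-0.27 to 0.05) and -0.06 in αGlu cells (-0.22 to 0.09). Both genes, the homeodomain factors most confined to β-cells, thus had intervals that span 0 with either oligonucleotide.

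Of the insulin gene activators, Neurod1 was the one most touched by a single library. In Ctr cells it ranged from 178 to 233 CPM in BSA and from 163 to 281 CPM in PA, where the 281 CPM came from library S23 and the next highest PA library was at 199.9 CPM. Its log2 fold change was -0.00 in Ctr cells (95% interval -0.15 to 0.14) and -0.09 without S23. In αGlu cells Neurod1 ranged from 191 to 235 CPM in BSA and from 162 to 209 CPM in PA. Its log2 fold change there was -0.14 (-0.28 to 0.01, adjusted p = 0.149), and it was called without S23, which shares the fit though it is in neither αGlu group (adjusted p = 0.0217).

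The endocrine factors Pax6, Isl1 and Rfx6, and the forkhead factor Foxa2, did not pass either. Pax6 was at a log2 fold change of -0.09 in Ctr (95% interval -0.22 to 0.05) and -0.12 in αGlu cells (-0.25 to 0.02), Isl1 at -0.02 and -0.09, and Rfx6 at 0.10 (-0.06 to 0.27) and -0.04 (-0.20 to 0.12). Foxa2 was at -0.06 in Ctr and -0.05 in αGlu cells. Their adjusted p-values ran from 0.191 to 0.847.

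The counts of called members were near those of the table as a whole. In Ctr cells 0 of 9 members were called higher and 1 lower, where 15.5% of tested genes were called higher and 14.5% lower. In αGlu cells 1 was called higher and 1 lower, against 14.4% and 14.2% of tested genes. The median log2 fold change of the members was -0.04 in Ctr and -0.06 in αGlu cells, against 0.01 for all genes in both. By the rule of more than a 2-fold change with an unadjusted p below 0.05, 0 of 9 members passed in either, where 5.91% of genes passed in Ctr and 5.57% in αGlu cells. With 9 genes these counts do not set the members apart. The size of the Mafa change was larger than the median size over all genes, which was 0.192 on the log2 scale in Ctr cells and 0.186 in αGlu cells. Mafa had the largest change of the 9 members in both, so this comparison does not set it apart either.

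When the PA effect was averaged over both oligonucleotides, a comparison added after the separate responses had been seen, the 2 called members stayed 2. The log2 fold change of Mafa was -0.35 (SE 0.0604, adjusted p = 5.23e-05) and that of Nkx2-2 was 0.20 (SE 0.0507, adjusted p = 0.00268), while 23.4% of genes were called higher and 22% lower. Pax6 came next at -0.10 (adjusted p = 0.0767), and was called with DESeq2 (-0.11, adjusted p = 0.0335) and with size factors by relative log expression (adjusted p = 0.0497). Nkx6-1 was called in batch 2 alone (-0.16, adjusted p = 0.0455). Mafa was called in each batch on its own, at -0.37 in batch 1 (adjusted p = 0.0233) and -0.33 in batch 2 (adjusted p = 0.00170). Nkx2-2 was at 0.24 in batch 1 (adjusted p = 0.0726) and 0.15 in batch 2 (adjusted p = 0.0267). Neurod1, not called with all libraries, was called without S23 (log2 fold change -0.11, adjusted p = 0.00519). The PA response did not pass a test of difference between batches for any member (0 of 9, with 0 at an unadjusted p below 0.05 and 0 by DESeq2), where 10 genes, or 0.0628%, did in edgeR and 45 in DESeq2.

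Markers of other cells moved with PA as well. The 7 fibroblast and stellate markers summed to 4.37 to 159 CPM in PA libraries (median 21.4) and to 39.5 to 931 CPM in BSA libraries (median 186). Acinar markers were lower with PA for 5 of 7 genes in Ctr cells and 4 of 7 in αGlu cells. Of all tested genes, 14.5% and 14.2% were called lower there. The 7 β-cell markers summed to a median of 100364 CPM in PA (83314 to 135495) and 131646 CPM in BSA (86507 to 150908). These medians pool batches that differed in level. The median in Ctr cells was 98445.5 CPM in PA and 131704 CPM in BSA, and in αGlu cells 108386 and 115324 CPM. In Ctr cells 3 of these markers were called higher and 2 lower, where 15.5% and 14.5% of all tested genes were. Their part in the changes of Mafa and Nkx2-2 was not tested.

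**Figure D3:**
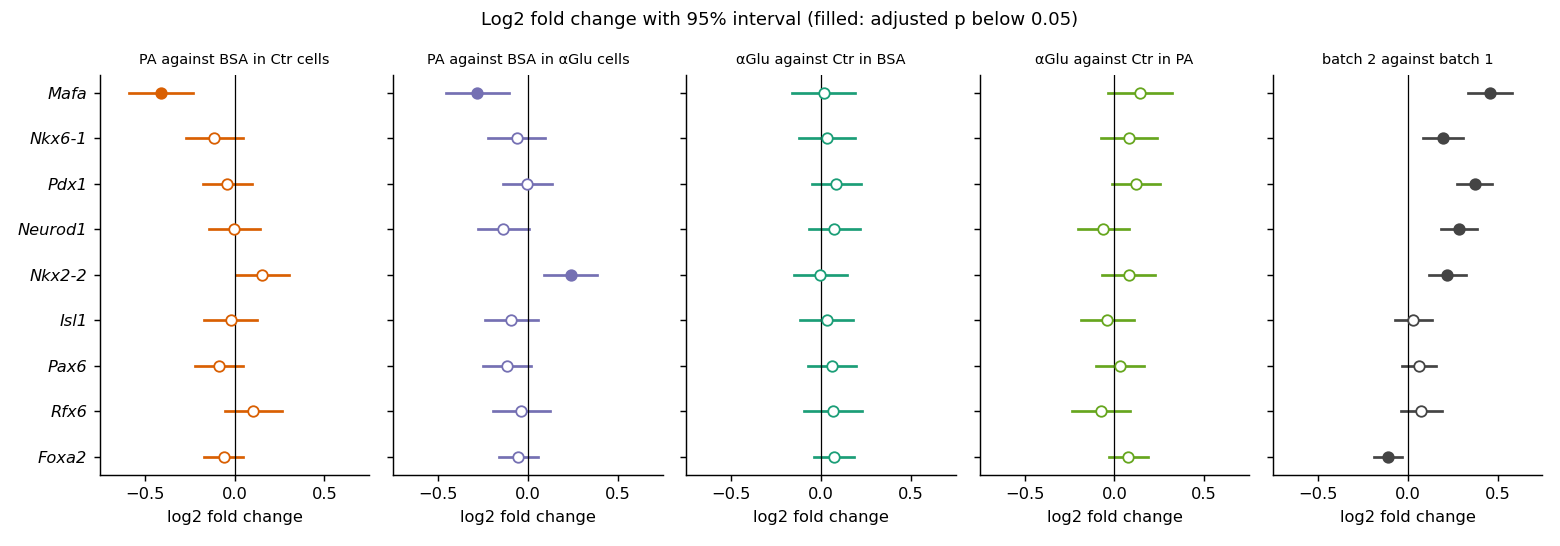
Log2 fold change of each factor with its 95% interval in 5 comparisons, filled where the adjusted p was below 0.05. Mafa is filled with PA in both oligonucleotides (-0.41 and -0.28), Nkx2-2 with PA in αGlu cells (0.24), no factor is filled between oligonucleotides, and 6 are filled between batches.

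The opposite shifts of Mafa and Nkx2-2 separated the PA from the BSA libraries. Taken as the log2 ratio of their counts, which needs no scaling between libraries, Mafa over Nkx2-2 was 1.77 ± 0.117 in BSA (SD, n = 12, range 1.54 to 1.91) and 1.23 ± 0.170 in PA (SD, n = 12, range 0.96 to 1.47), and the 12 PA libraries all lay below the 12 BSA libraries. The mean ratio was 1.76 in BSA and 1.2 in PA with Ctr, and 1.78 and 1.26 with αGlu. Batch 1 alone spanned 1.54 to 1.76 in BSA and 0.96 to 1.2 in PA. In batch 2 the spans were 1.77 to 1.91 and 1.31 to 1.47. This pair was picked after its values were seen and is a description with no test.

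Other genes left such a gap too. The counts of 2.21% of the other genes with at least 10 CPM, as a ratio to Nkx2-2, left the same clear gap between PA and BSA, and 5.36% did so as a ratio to Mafa. Of the 36 pairs among the 9 members, 2 had it. The other pair was Pdx1 and Mafa, where the log2 ratio of Pdx1 to Mafa had a mean of -1.43 in BSA and -1.11 in PA.

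**Figure D4:**
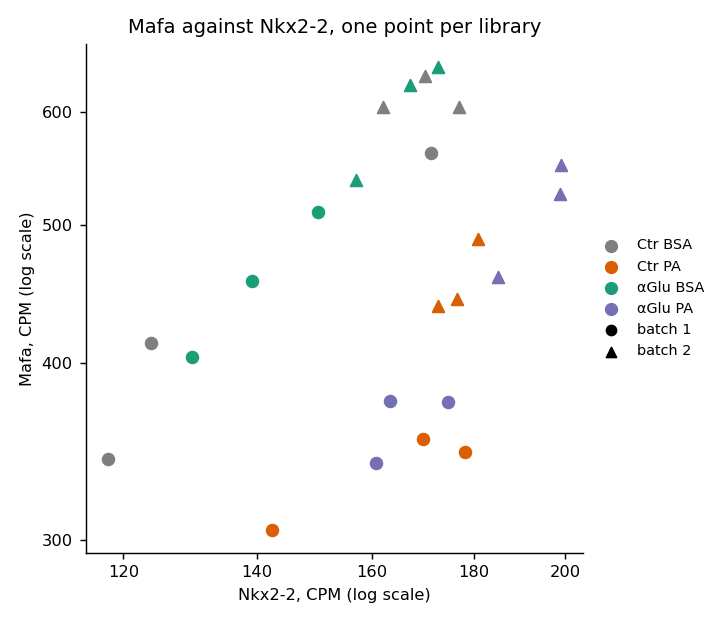
CPM of Mafa against CPM of Nkx2-2 in each of the 24 libraries (log axes), coloured by group and shaped by batch. The PA libraries lie to the side of lower Mafa for a given Nkx2-2, with log2 count ratios of 0.96 to 1.47 against 1.54 to 1.91 in BSA.

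With the libraries fitted as independent, the inhibitor of the tRNA fragment moved no member past the threshold. A fit by animal was not run and could call members here. In BSA the log2 fold changes of αGlu against Ctr ran from -0.01 to 0.08, and in PA from -0.08 for Rfx6 to 0.14 for Mafa (95% interval -0.03 to 0.32, adjusted p = 0.993). The edgeR test called 0 of 9 members and 0% of all genes in each. At an unadjusted p below 0.05 there were 0 members in either, with 461 genes in BSA and 538 in PA, and DESeq2 called 0 members with 8 and 30 genes. The median log2 fold change of the members was 0.06 in BSA and 0.08 in PA, against 0.00 and -0.00 for all genes.

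Whether the PA response itself differed between oligonucleotides was tested as an interaction. The difference was 0.13 for Mafa (95% interval -0.12 to 0.38), 0.09 for Nkx2-2 (-0.12 to 0.29) and -0.14 for Neurod1 (-0.34 to 0.07), on the log2 scale. For 0 of 9 members and 0% of genes was it called (adjusted p = 0.999), with 0 members and 332 genes at an unadjusted p below 0.05, and 0 members and 0 genes by DESeq2. The smaller fall of Mafa and the call of Nkx2-2 with αGlu are thus not shown to differ from the Ctr values.

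More members were called between the batches than with either treatment, and the insulin gene activators were among those higher in batch 2. Pdx1 ranged from 138 to 192.5 CPM in batch 1 (median 171, n = 12) and from 192.3 to 239 CPM in batch 2 (median 222, n = 12), touching at 1 library, with a log2 fold change of 0.37 (adjusted p = 3.48e-07). Mafa had a median of 376 CPM in batch 1 (305 to 562) and of 544 CPM in batch 2 (438 to 645), overlapping, with a log2 fold change of 0.46 (adjusted p = 7.40e-07). Neurod1 ranged from 162 to 196 CPM in batch 1 and from 197 to 281 CPM in batch 2, without overlap, and its log2 fold change was 0.29 (adjusted p = 3.11e-05).

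Nkx6-1 and Nkx2-2 were higher in batch 2 by 0.20 (adjusted p = 0.00332) and 0.22 (adjusted p = 7.24e-04) on the log2 scale. Foxa2 was the member that was lower, with a median of 80.5 CPM in batch 1 and 76.2 CPM in batch 2 and a log2 fold change of -0.11 (adjusted p = 0.0170). Pax6, Isl1 and Rfx6 were at 0.06, 0.03 and 0.08 and were not called. In all, 5 of 9 members were called higher and 1 lower, against 26.1% and 25.4% of all genes, and the members' median was 0.20 against 0.00 for all genes.

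The mixture of cells in the libraries also differed between batches. The summed acinar markers were at 2703 to 18322 CPM in batch 1 and at 193 to 539.7 CPM in batch 2. The β-cell markers went the other way, at 83314 to 132972 CPM (median 87299) in batch 1 and 109477 to 150908 CPM (median 131735) in batch 2, and the α-cell markers were at 14374 to 25882 CPM in batch 1 and 10127 to 16856 CPM in batch 2. Their part in the batch differences of the members was not tested.

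Across the 24 libraries the members varied together to a moderate degree. With the batch means removed, the median Pearson r of log2 CPM over the 36 pairs was 0.438, with 15 pairs above 0.5 and 6 below 0. Nkx6-1 and Pax6 were the closest pair (r = 0.876, Spearman rho = 0.887), followed by Pdx1 and Nkx6-1 (r = 0.850, rho = 0.791). Neurod1 and Foxa2 were the least alike (r = -0.36, rho = 0.05), and that value rested on few libraries, since r was 0.08 without the 2 most extreme. All pairs share the libraries and their scaling, so the values are a description.

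Mafa and Nkx2-2 showed most clearly how the treatment and the remaining variation can part. With batch means removed their r was -0.05 (rho -0.13), and with the means of each group within each batch removed it was 0.90 (rho 0.85, n = 24). Libraries of one group and batch with more Mafa thus also had more Nkx2-2, while PA shifted both in opposite directions. With group means removed too, the median over all 36 pairs was 0.593.

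For each member the most similar genes were sought among 9468 other genes with a mean of at least 10 CPM, by r of batch-centred log2 CPM over the 24 libraries. Mafa went most closely with Prss53 (r = 0.959) and Zc3h3 (0.938), and Nkx2-2 with Fbxl16 (0.949) and Celf3 (0.928). Pdx1 was followed by Insrr, a receptor of the insulin receptor family (0.904), and Mast3 (0.884). Nkx6-1 was followed by Mlxipl (ChREBP), a factor that responds to glucose (0.898), and Hdhd5 (0.875).

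The values of the other members were of a like size. Pax6 went with Abat (r = 0.868) and Jade2 (0.855), and Isl1 with Map3k15 (0.867) and Pi4ka (0.858). Rfx6 was closest to Ankrd12 (0.889) and Ints6l (0.864), and Foxa2 to Csnk1g2 (0.891) and Usp30 (0.865). Neurod1 had the lowest values, at 0.845 for Celf2 and 0.843 for Ankrd44.

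Known targets of the members moved in both directions with PA. Of 19 listed β-cell genes 18 were tested, and with PA 6 were higher and 3 lower in Ctr cells, 5 higher and 3 lower in αGlu cells. Of all tested genes, 15.5% were called higher and 14.5% lower in Ctr cells, and 14.4% and 14.2% in αGlu cells. The medians of the list were 0.06 and 0.01 on the log2 scale, against 0.01 for all genes. Both insulin genes, which Mafa, Pdx1 and Neurod1 bind, fell in Ctr cells, Ins1 by a log2 fold change of -0.44 (adjusted p = 5.80e-04) and Ins2 by -0.34 (adjusted p = 0.00880). In αGlu cells Ins1 was at -0.32 (adjusted p = 0.00864) and Ins2 at -0.22 (adjusted p = 0.0968). Ucn3, the peptide of mature β-cells, rose by 0.58 in Ctr and 0.59 in αGlu cells (adjusted p = 5.15e-06 and 4.50e-06).

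Among the other targets, Iapp, the amyloid peptide released with insulin, rose by 0.43 and 0.44, Ffar1, the receptor for long-chain fatty acids, by 0.27 and 0.26, and G6pc2, the islet glucose-6-phosphatase, by 0.29 and 0.23, in Ctr and αGlu cells. Pcsk1, which cleaves proinsulin, and Cacna1c, a calcium channel subunit, were lower in αGlu cells (-0.21 and -0.25, adjusted p = 0.0132 and 0.0133). The interaction called 0% of genes, so a difference from Ctr cells is not shown for Pcsk1 or Cacna1c. Slc2a2, the glucose transporter, was at 0.01 and -0.06, and Slc30a8, the zinc transporter of insulin granules, at 0.10 and 0.02, neither called.

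Genes listed for immature or dedifferentiated β-cells moved both ways too. Of 12 tested, 2 were higher and 6 lower with PA in each oligonucleotide. The shares over all tested genes were 15.5% higher and 14.5% lower in Ctr cells, and 14.4% and 14.2% in αGlu cells. The median log2 fold change of the list was -0.39 in Ctr and -0.31 in αGlu cells, against 0.01 for all genes. Aldh1a3, an aldehyde dehydrogenase that marks failing β-cells, rose by 1.17 in Ctr and 1.16 in αGlu cells (adjusted p = 1.79e-04 and 1.82e-04), and Myc rose by 0.46 and 0.55. Npy, a peptide of immature β-cells, was at -1.47 and -1.70, and Ldha, the lactate dehydrogenase that mature β-cells keep low, at -1.19 and -1.43. Sox9, at -1.39 and -1.55, is also a marker of duct cells, whose 7 listed markers summed to 240.3 to 518 CPM in PA and 305 to 591 CPM in BSA. Any part of duct cells, or of other cells whose markers moved with PA, in the values of Sox9, Ldha and Npy was not tested.

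**Figure D5:**
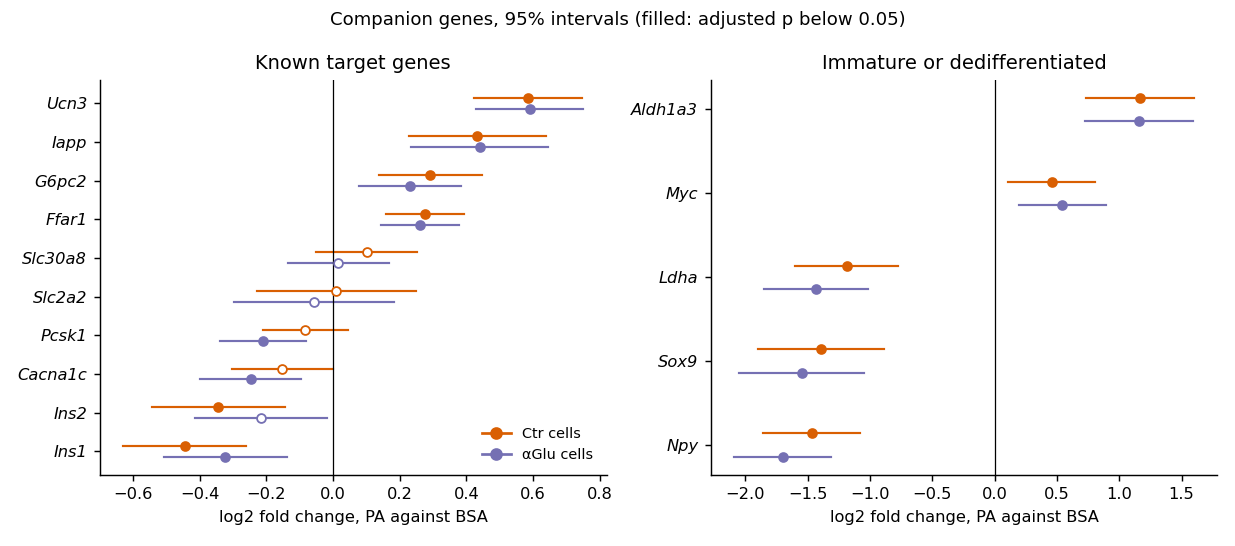
Log2 fold change with PA, with 95% intervals, of the named target genes and the named genes of immature or dedifferentiated β-cells, in Ctr and αGlu cells. Ucn3 (0.58 and 0.59) and Aldh1a3 (1.17 and 1.16) lie to the right, Ins1 (-0.44 and -0.32), Ldha (-1.19 and -1.43) and Npy (-1.47 and -1.70) to the left.

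Of 38 other islet transcription factors 35 were tested, with 5 higher and 8 lower with PA in Ctr cells and 4 higher and 9 lower in αGlu cells. Among all tested genes 15.5% were called higher and 14.5% lower in Ctr cells, and 14.4% and 14.2% in αGlu cells. The median of these factors was -0.13 and -0.10 on the log2 scale, against 0.01 for all genes. Ldb1, the cofactor through which Isl1 assembles its complexes, was lower at -0.44 in Ctr (adjusted p = 9.96e-05) and -0.28 in αGlu cells (adjusted p = 0.00562), while Isl1 itself was not called. Tcf7l2, the nuclear effector of Wnt signalling, was at -0.47 in Ctr cells, and St18 at -0.19 in αGlu cells. The ETS factor Etv1 (0.46 and 0.31) and the repressor Scrt1 (0.41 and 0.56) were higher in both. Esrrg was higher in Ctr cells (0.42) and Insm1 in αGlu cells (0.20). Tcf7l2, St18, Esrrg and Insm1 are given only where they were among the called genes of smallest p. With 0% of genes called for the interaction, no difference between oligonucleotides is shown for them.

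Among factors of other islet cells, the α-cell factors Irx1 (-0.17 and 0.15) and Irx2 (0.14 and 0.05) and the δ-cell factor Hhex (-0.41 and -0.36) were not called with PA in Ctr or αGlu cells.

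Of 11 listed transcripts named after or lying beside a member, 3 were in the table under the listed name, and all 3 were tested. Paupar, a noncoding RNA beside Pax6 at chr2:105657862-105661343 on the minus strand, had a log2 fold change with PA of -0.29 in Ctr cells and -0.48 in αGlu cells, where it was called (adjusted p = 0.0365). Pax6os1, which starts inside the Pax6 span on the opposite strand at chr2:105536080-105670330, was at 0.11 and 0.07, and 9030622O22Rik at -0.16 and -0.41, not called. Paupar lies within the span of Pax6os1 on the same strand, and whether strand was used in counting is not given in the sources used here, so the counts of both are uncertain.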

How the data were processed

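Messenger RNA of 24 islet cell libraries was sequenced by the study. The authors annotated and normalised the reads in the QIAGEN RNA-seq Analysis Portal (aligner not given in the sources used here), and the submitters' processing notes name GRCm38 as the build. The deposited counts per gene were used as given, the TPM and RPKM values deposited by the authors for levels within a library, and 24 further value columns not at all. One line with no gene name held 0 counts and was left out.

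Genes were filtered with filterByExpr (15916 kept), scaled by TMM and fitted with edgeR 4.0.16 (R 4.3.3; quasi-likelihood F-test, two-sided, Benjamini-Hochberg adjustment, called below 0.05) on group and batch, with a coefficient of biological variation of 15.4%. Replicates differed by more than sampling noise. CPM are TMM-scaled, and log2 CPM used a prior count of 2. The procedure was tested on simulated data. Alternatives were DESeq2 1.42.0, total-count and other scalings, no filter, no batch term, single batches, compared groups alone, a more than 2-fold rule and leaving out each library. The effect of PA over both oligonucleotides was added after the data were seen.

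The members, lists and tests were chosen with earlier results of these data known. Named were all members, up to 3 called genes of smallest p in each direction of each list, list genes that are cell type markers, the 2 genes most like each member, and transcripts beside members. Library numbers are unique and the labels name no animal, so no samples were paired across groups. Coordinates are from GENCODE vM21, promoters from RefSeq GRCm38.p6. Some genes of these lists are counted in the totals and not reported here by name.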

Additional observations from a re-analysis of the deposited data

Results flagged for a closer look

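Of 36 sets of 6 libraries (9 members in 4 groups) 4 held a library whose gap to its neighbour, as a share of the group's range, was above Dixon's critical value for 6 libraries. Chance alone gives about 1 in 20 groups where the 6 values come from 1 normal distribution. These sets mix 2 batches and share libraries between members, so the 4 cannot be set against that rate. All lay in the Ctr PA group. Library S7 was the lowest for Nkx6-1 (gap 0.661 of the range) and for Nkx2-2 (0.707). Library S23 was the highest for Neurod1 (0.687) and the lowest for Foxa2 (0.646), and it was the library with 8.83% mitochondrial counts. Without S23 the log2 fold change of Neurod1 with PA in Ctr cells was -0.09 in place of -0.00.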

How the results depend on the processing

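The log2 fold change of Mafa with PA stayed negative under every alternative run, from -0.48 to -0.32 in Ctr and from -0.34 to -0.23 in αGlu cells, and that of Nkx2-2 stayed positive. Which members were called did depend on the setting, and the cause was not tested. Fits of single batches also held fewer libraries. In Ctr cells 1 member was called, against 0 with the 2-fold rule, without the batch term or in batch 1 alone, 2 with total counts and 1 to 2 leaving out 1 library (2 without S1 of Ctr BSA). In αGlu cells 2 were called, against 0 with the 2-fold rule, without the batch term or in batch 1, 1 in batch 2, 3 with the compared groups alone (Neurod1 added) and 2 to 3 leaving out 1 library (3 without S23). Between batches the 2-fold rule gave 0, and over both oligonucleotides it gave 0, batch 1 alone 1, and DESeq2, relative log expression factors and batch 2 alone 3, against 2.

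Over all genes the calls with PA were 4772 in Ctr cells (941 by the 2-fold rule, 2312 without the batch term, 2033 and 1833 in batches 1 and 2) and 4543 in αGlu cells (886, 2271, 1644 and 1902). Over both oligonucleotides 7221 genes were called (915 by the 2-fold rule, 4327 and 4240 in single batches), and between batches 8197 (1015 by the 2-fold rule). For αGlu against Ctr the 2-fold rule took 125 genes in BSA and 150 in PA where edgeR called 0, and 104 for the interaction.

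Signs turned for uncalled members near 0. With PA in Ctr cells, Pdx1 was at 0.077 in batch 1; Neurod1 at 0.00537 unfiltered, 0.027 with total counts, 0.000103 with TMM without hormone genes, 0.00483 without the batch term and 0.058 in batch 2; and Isl1 at 0.012 with total counts and 0.000781 in batch 1. With PA in αGlu cells, Pdx1 was at 0.000537 unfiltered and 0.00845 in batch 2, and Rfx6 at 0.019 in batch 1. For αGlu in BSA, batch 2 gave Pdx1 -0.00981, Mafa -0.032, Nkx6-1 -0.049 and Isl1 -0.000822, and Nkx2-2 was at 0.000971 unfiltered, 0.041 with total counts and 0.025 in batch 1. For αGlu in PA, batch 1 gave Neurod1 0.016, Isl1 0.047 and Rfx6 0.026. For the interaction, Pdx1 was at -0.00142 with total counts and -0.097 in batch 1, Foxa2 at -0.033 and -0.056, Nkx6-1 at -0.031 and Nkx2-2 at -0.00017 in batch 1, and Pax6 at 0.034 in batch 2. Isl1 between batches was at -0.018 with total counts, and over both oligonucleotides Pdx1 was at 0.029 in batch 1 and Rfx6 at -0.00924 in batch 2.

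Leaving out 1 library gave, with PA in Ctr cells, -0.094 to 0.027 for Neurod1 and -0.073 to 0.013 for Isl1, and in αGlu cells -0.035 to 0.028 for Pdx1. For αGlu in BSA it gave -0.052 to 0.10 for Mafa, -0.016 to 0.071 for Nkx6-1, -0.055 to 0.060 for Nkx2-2 and -0.00914 to 0.057 for Isl1, and in PA -0.089 to 0.031 for Neurod1, -0.000638 to 0.073 for Pax6 and -0.081 to 0.00917 for Isl1. The interaction ran from -0.066 to 0.011 for Pax6 and from -0.041 to 0.026 for Foxa2. The median r over member pairs was 0.496 with total counts and 0.379 to 0.556 leaving out 1 library. No paired analysis was run because the labels do not say which libraries came from the same animal. With 6 libraries a group, the standard error of a member's log2 fold change with PA ran up to 0.0854, which limits what could be detected.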
